A study of Mus musculus with 8 samples.

Results

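The 7 genes of ether lipid synthesis and of the peroxisome followed here through an H3K4me3 profile of mouse lung tumor cells are Agps, Far1, Gnpat, Pex3, Pex5, Pex10 and Pex14. All peaks listed under these gene names in the table of the series were taken. Of the 7 genes, 4 have a peak under their own name, with 5 peaks in all, out of 35486 listed peaks and 20871 genes. Far1 has 2 peaks, Pex5, Pex10 and Pex14 have 1 each, and Agps, Gnpat and Pex3 have none under their own name.

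H3K4me3, trimethylated lysine 4 of histone H3, lies mainly at the start sites of genes and is used as a mark of active promoters. It was measured by an assay that the study names CUT&Tag. The labels describe an enzyme made of protein A/G and micrococcal nuclease, which is tethered to the antibody and frees the DNA next to the mark. The cells were CD45-CD31-EpCAM+ tumor cells sorted from lung tumors of 2 KL mice (replicates 1 and 2) and 2 KLG4m/m mice (replicates 3 and 4), with 1000000 cells a mouse. All were adult and were taken 10 weeks after intranasal Ad-Cre, a virus that carries the Cre recombinase into the airways. Every mouse, KL included, carried the same Cre-dependent tumor model with deletion of Lkb1 (Lkb1fl/fl) in its tumor cells, KLG4m/m mice carried Gpx4m/m in addition, and both genotypes received tamoxifen. In KLG4m/m cells, Cre allows a tamoxifen-activated Dre recombinase, driven by a CAG promoter, to remove later exons of Gpx4, which encodes the enzyme that reduces lipid hydroperoxides in membranes. The labels and methods speak of 3 mice in total, while 4 libraries are labelled; that each library is a separate mouse, so that n = 2 counts independent animals, is an assumption. The H3K27ac libraries were not analysed here.

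Ether lipids carry a fatty alcohol in ether linkage on the first carbon of glycerol, and plasmalogens are their vinyl ether form. Their synthesis begins inside the peroxisome, where GNPAT acylates dihydroxyacetone phosphate and AGPS replaces the acyl chain with a fatty alcohol that FAR1 supplies; later steps run in the endoplasmic reticulum. The peroxins build the organelle: PEX3 brings in membrane proteins, PEX5 is the receptor that carries most enzymes to the peroxisome, PEX14 is the docking protein for the receptor, and PEX10 is a ubiquitin ligase of the RING type that helps recycle it. Polyunsaturated ether phospholipids can be oxidized, and this pathway is known to affect ferroptosis, the form of cell death that GPX4 holds back.

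The start sites of 4 of the 7 genes lie head to head with those of other genes. In RefSeq GRCm38.p6, the start site of Agps lies 10 bases from that of Gm34861 on the opposite strand, that of Gnpat 4 bases from 2810004N23Rik, that of Pex3 235 bases from Adat2, and 1 start site of Pex5 lies 5 bases from D830015G05Rik. The table gives each peak to 1 gene, and at all 4 of these pairs the promoter peak stands under the neighbour. The bases just before the start sites follow, each read 5′ to 3′ on the strand of the gene, with CpG dinucleotides in capitals. For the 4 shared promoters 30 bases are given, and for the 3 promoters with a peak of their own 100 bases.
Agps, chr2:75832147-75832176, plus strand: tgaagctccaggCGcaaggcccctgcCGcc
Gnpat, chr8:124863003-124863032, plus strand: CGcccagtgcccaccacttcCGcttcCGgc
Pex3, chr10:13553143-13553172, minus strand: aaagaCGaggcaccCGggagctatttgCGg
Pex5, chr6:124415068-124415097, minus strand: gcCGagtccCGcccccttgctccCGccccc
Far1, chr7:113513734-113513833, plus strand: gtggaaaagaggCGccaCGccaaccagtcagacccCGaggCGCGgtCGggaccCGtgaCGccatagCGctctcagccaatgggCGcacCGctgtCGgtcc
Pex10, chr4:155066930-155067029, plus strand: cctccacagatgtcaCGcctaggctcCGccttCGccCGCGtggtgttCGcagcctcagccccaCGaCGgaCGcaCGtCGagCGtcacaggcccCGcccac
Pex14, chr4:149099844-149099943, minus strand: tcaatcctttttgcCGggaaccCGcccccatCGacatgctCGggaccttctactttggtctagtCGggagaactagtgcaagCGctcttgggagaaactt

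CpG-rich promoters are the usual seat of H3K4me3 in mammals. Over windows of 300 bases, from 250 before to 50 after each start site, the median of all 32851 RefSeq windows was 7 CpG, and Agps had 32, Gnpat 33, Pex10 29, and Far1 and Pex3 28 each. Pex14 stood below these with 14 CpG and a GC content of 46.3%, against a median of 52.7%. The 3 windows of Pex5 held 9, 22 and 39 CpG. Relative to base composition the CpG ratio (observed over expected) of Pex14 was still 0.87, against 0.384 for the median window.

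The same windows were searched on both strands for short motifs. The letters GGGCGG, a GC box, were in 7 of the 9 member windows and in 35.7% of all windows. CCAAT was in 4 of 9 member windows and in 37.4% of all, with 3 matches in the Far1 window. Gnpat alone held CCGGAA, found in 14.9% of all windows, and CACGTG, found in 7.15%. TATAAA was in the Pex14 window and in 13.6% of all, while AGGTCA (16.3% of all) and CGCATGCG (1.87%) were in none of the 9. The 3 Pex5 windows overlap in part, so that their matches are not separate.

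At the 3 promoters with a peak of their own, H3K4me3 in KLG4m/m cells differed from that in KL cells by less than the spread between libraries. Peaks are 400 bases wide, so CPM (reads per 1000000 reads in peaks, scaled by TMM) can be compared between them per length. Positions of peaks are those of the table, which does not name its genome build. They do not match GRCm38, although the methods name an Ensembl release of the mouse genome for mapping. No position was carried from one build to the other.

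The Pex10 peak (chr4:155151236-155151636) covers the start site and held 449 and 392 reads in KL and 433 and 403 in KLG4m/m. The KLG4m/m libraries lie between those of KL once scaled, at 121 ± 11.5 CPM in KL and 125 ± 0.562 CPM in KLG4m/m (mean ± SD, n = 2 each, here and below). The log2 fold change of KLG4m/m over KL was 0.05 (SE 0.0832, 95% interval -0.12 to 0.22; edgeR quasi-likelihood test with Benjamini-Hochberg adjustment over all peaks, adjusted p = 0.766). With its mean at percentile 98.4 among the 17073 peaks within 1 kb of a start site, it was the strongest peak of the 7 genes.

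The Far1 promoter peak (chr7:113112363-113112763) lies 0.245 kb upstream. Its reads numbered 262 and 293 in KL and 286 and 230 in KLG4m/m. One KLG4m/m library was below both KL libraries and the other between them, and the means were 79.9 ± 6.38 and 77.1 ± 8.29 CPM. The log2 fold change was -0.05 (SE 0.101, 95% interval -0.26 to 0.16; edgeR adjusted p = 0.808). FAR1, the fatty acyl-CoA reductase of the peroxisome membrane, is the rate-limiting step of plasmalogen synthesis. The Pex14 peak (chr4:149183898-149184298), 2 bases from the start site, held 196 and 212 reads in KL and 206 and 171 in KLG4m/m. These are 58.7 ± 3.31 and 56.3 ± 4.81 CPM, again with overlapping groups, and the log2 fold change was -0.06 (SE 0.111, 95% interval -0.29 to 0.17; edgeR adjusted p = 0.796).

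The intervals bound what these libraries could have missed. At all 3 promoters they leave out a change of KLG4m/m to below 0.82 times or above 1.16 times the KL level. These bounds assume the scaling used, which cannot show a gain or loss of H3K4me3 shared evenly by the whole genome. In sorted bulk cells, fewer cells with the mark and less mark per cell cannot be told apart.

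**Figure D1:**
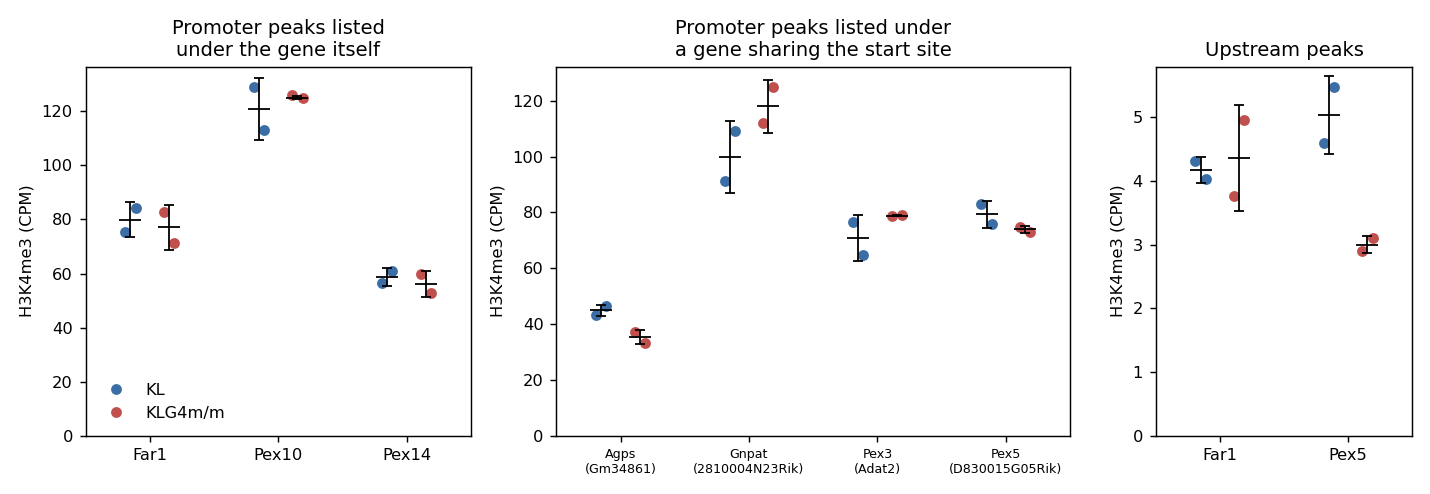
H3K4me3 in CPM at each peak of the 7 genes, by library (points; KL blue, KLG4m/m red), with the mean and SD of the 2 libraries of each group (black bar and whiskers); each panel has its own axis from 0. The 3 promoter peaks listed under the gene itself overlap between the groups; those listed under the gene that shares the start site do not, with the peaks at Agps and Pex5 lower and those at Gnpat and Pex3 higher in KLG4m/m.

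The 4 promoters that share a start site had groups that did not overlap, in both directions, and none passed the threshold of an adjusted p of 0.05. They were looked up after it was seen that Agps, Gnpat and Pex3 had no peak of their own, by start sites within 1000 bases in RefSeq. Of all peaks within 1 kb of a start site, 57.0% had groups that did not overlap and 11.3% passed the threshold. A value here belongs to both genes of a pair.

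At the start site of Agps and Gm34861 (chr2:75662662-75663062), KL held 151 and 161 reads and KLG4m/m 128 and 108. AGPS, alkylglycerone phosphate synthase, forms the ether bond itself. The level was 44.9 ± 2.08 CPM in KL and 35.3 ± 2.6 CPM in KLG4m/m, a log2 fold change of -0.35 (SE 0.131, 95% interval -0.61 to -0.08) with an edgeR p of 0.0136 before and 0.0979 after adjustment over all peaks. With a percentile of 48.9 it was the weakest promoter of the 7.

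The promoter of Gnpat and 2810004N23Rik (chr8:125589720-125590120) moved the other way. It held 317 and 380 reads in KL and 385 and 404 in KLG4m/m, or 100 ± 12.9 and 118 ± 9.5 CPM. The difference between the 2 KL libraries was larger than that between the higher KL and the lower KLG4m/m library. The log2 fold change was 0.24 (SE 0.0925, 95% interval 0.05 to 0.43), with an edgeR p of 0.0166 before and 0.11 after adjustment. Without KL replicate 1 it was 0.11, and without KL replicate 2 0.37. GNPAT and AGPS catalyze successive steps and form a complex in the peroxisome.

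The promoter of Pex3 and Adat2 (chr10:13428740-13429140) held 266 and 225 reads in KL and 271 and 255 in KLG4m/m, or 70.7 ± 8.28 and 78.8 ± 0.256 CPM. Here too the KL libraries stood further apart than the groups did, and the log2 fold change was 0.16 (SE 0.101, 95% interval -0.05 to 0.36; edgeR adjusted p = 0.353). Without KL replicate 1 it was 0.28, and without KL replicate 2 0.04. The promoter of Pex5 and D830015G05Rik (chr6:124391948-124392348) held 288 and 264 reads in KL and 258 and 236 in KLG4m/m. Its level was 79.4 ± 4.81 and 73.9 ± 1.24 CPM, and the log2 fold change was -0.10 (SE 0.0961, 95% interval -0.30 to 0.09; edgeR adjusted p = 0.544), with -0.04 and -0.16 when KL replicate 1 or 2 was left out.

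Over the 7 promoters, 0 passed the threshold in edgeR, 0 in DESeq2 and 0 in limma. At an unadjusted p under 0.05 there were 2 in edgeR, those at Agps and Gnpat, and 0 in DESeq2. Of all 35486 peaks, 8738 had an unadjusted edgeR p under 0.05, so such values were common. The median log2 fold change was -0.05, from -0.35 to 0.24, and that of all promoter peaks was 0.00 (0.0024). With 2 libraries against 2, an exact permutation test of a single peak cannot go below 0.333, so every call rests on the spread that edgeR shares across peaks.

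In level over all 4 libraries, the promoters of Pex10 (123 CPM) and Gnpat (109 CPM) were the highest and overlapped each other. Far1, Pex5 and Pex3 followed at 78.5, 76.7 and 74.7 CPM, with overlapping ranges. Pex14 at 57.5 CPM and Agps at 40.1 CPM each lay apart from the next promoter above, since no library of the lower overlapped one of the higher. The median promoter peak had 41.2 CPM, so 6 of the 7 were above it.

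**Figure D2:**
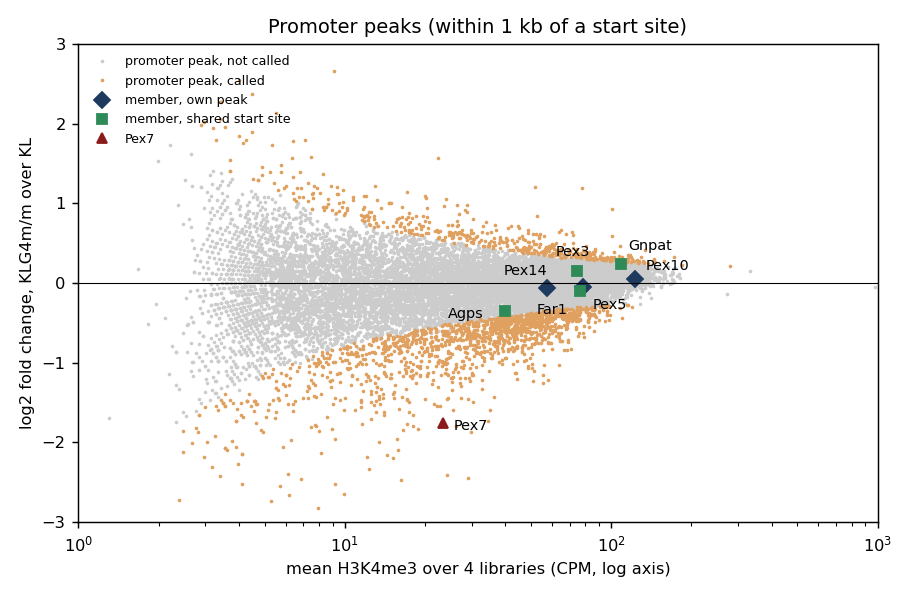
Mean H3K4me3 over the 4 libraries (CPM, log axis) against the log2 fold change of KLG4m/m over KL for peaks within 1 kb of a start site; orange points passed an adjusted p of 0.05, dark diamonds are members with a peak of their own, green squares those that share a start site, and the red triangle is Pex7; 5 peaks fall outside the axes. The 7 member promoters lie between -0.35 and 0.24, and Pex7 lies at -1.76.

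Away from the promoters, 2 weak peaks are listed under member names. The Pex5 peak (chr6:124402063-124402463) is intergenic, 9.19 kb upstream of the start site to which the table refers it. It held 16 and 19 reads in KL and 10 in each KLG4m/m library. The groups did not overlap, as was so for 54.2% of all peaks, of which 8.62% passed the threshold. The level was 5.04 ± 0.615 CPM in KL and 3.0 ± 0.139 CPM in KLG4m/m, and the log2 fold change was -0.74 (SE 0.399, 95% interval -1.56 to 0.08; edgeR adjusted p = 0.254). At this depth a difference from 1.05 times to 0.338 times the KL level lies within the interval.

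The Far1 upstream peak (chr7:113104288-113104688), intergenic and 8.32 kb from the start site, held 15, 14, 13 and 16 reads in KL replicates 1 and 2 and KLG4m/m replicates 3 and 4. Its log2 fold change was 0.06 (SE 0.382, 95% interval -0.73 to 0.84; edgeR adjusted p = 0.947). Of the 5 peaks under member names, 0 passed the threshold in edgeR or limma, and 0 had an unadjusted p under 0.05 in edgeR or DESeq2. DESeq2 gave an adjusted p for 3 of the 5, the promoter peaks, and called 0 of these.

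The gene body of Pex14 carries 4 further peaks that the table gives to other genes, Gm42351 and Gm9506, while annotating them to introns and an exon of Pex14. The peak on exon 2 (chr4:149160455-149160855) held 19 and 26 reads in KL and 42 and 33 in KLG4m/m, or 6.48 ± 1.43 and 11.2 ± 1.39 CPM. This log2 fold change of 0.79 (SE 0.271; edgeR adjusted p = 0.0679) was the largest in size at any of the 7 genes and missed the threshold. The other 3, in introns 1 and 2, were lower in KLG4m/m on average, with log2 fold changes of -0.44 to -0.49 and edgeR adjusted p-values of 0.164 to 0.546. One of the 3, at chr4:149133860-149134260 with 55, 49, 40 and 31 reads, had an unadjusted p of 0.0341. Dffa, an inhibitor of the nuclease that cuts DNA in apoptosis, has its promoter peak within 5000 bases of that of Pex14. It held 177 and 174 reads in KL and 203 and 181 in KLG4m/m, and its difference on the log2 scale was 0.19 (edgeR adjusted p = 0.31).

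Around each of the 7 promoters, the other listed peaks within 100 kb were counted, 3 to 10 a promoter. Of these, 1 passed the threshold in edgeR, as did 8.62% of all peaks. It is listed under Morn1 near Pex10 and was higher in KLG4m/m by 0.89. Morn1 is named for this count, after its values were seen. DESeq2 called 0 of the peaks to which it gave an adjusted p. The medians of the log2 fold changes ran from -0.14 around Agps to 0.09 around Pex3, and single peaks from -1.21 near Pex14 to 0.89 near Pex10. An unadjusted edgeR p under 0.05 was seen at 5 of the 10 peaks around Pex14 and 2 of the 10 around Gnpat. Pex10 and Pex5 had 1 such peak each, and Far1, Agps and Pex3 had 0. Of all 35486 peaks, 8738 had such a p.

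Reads summed over all peaks of a gene gave the same picture. Of the 4 members with a peak, 0 passed the threshold by edgeR, against 15% of the 20871 genes, with 0 at an unadjusted p under 0.05 in edgeR and 0 past the threshold in limma. DESeq2 called 0 of the 3 to which it gave an adjusted p, Pex5 having none. Pex5 had the largest summed difference in size, -0.75 (SE 0.419; edgeR adjusted p = 0.23), from its upstream peak alone. The 3 genes closest to it over the 4 libraries were Gm52764, Gm13005 and Ppp1r1a, with root mean square differences of 0.0605, 0.0619 and 0.0757 in log2(CPM + 1). These are genes with 9 to 20 reads a library, so that the likeness is one of low counts.

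The other peroxins and the enzymes around the members were then read as lists, chosen with earlier results of these data known. Of 17 genes in the peroxin list, which counts the Pex5-like gene Pex5l, 14 have a peak, and 1, Pex7, passed the threshold. The list had 0 higher and 1 lower gene, where 5.38% of all genes were higher and 9.63% lower, and its median log2 fold change was -0.03, against 0.00 (0.0023) for all genes. Pex3 and Pex13 were among those with no peak under their own name. The peroxins with the largest differences that did not pass were Pex5, above, and Pex11a, a factor of peroxisome division, at 0.19 (SE 0.126; edgeR adjusted p = 0.332).

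Pex7 fell. PEX7 is the import receptor for the few enzymes that carry the second type of targeting signal, and AGPS is one of them; loss of PEX7 in people causes rhizomelic chondrodysplasia punctata, a deficiency of plasmalogens. Its promoter peak (chr10:19783078-19783478), over the start site, held 129 and 121 reads in KL and 44 and 27 in KLG4m/m. Both KLG4m/m libraries were far below both KL libraries. The level was 36.0 ± 1.6 CPM in KL and 10.6 ± 3.11 CPM in KLG4m/m, a ratio of 0.296 (95% interval 0.226 to 0.387), with a log2 fold change of -1.76 (SE 0.189; edgeR adjusted p = 1.46e-06). The summed reads gave -1.39 (SE 0.173; adjusted p = 2.75e-10).

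No other listed peak within 100 kb of the Pex7 promoter passed the threshold. Its second peak, 6.14 kb upstream, held 3 and 17 reads in KL and 17 and 11 in KLG4m/m, which overlap (log2 fold change 0.54; edgeR adjusted p = 0.55). Of the 8 other listed peaks within 100 kb, under Slc35d3, Pex7 and Map3k5, 0 had an adjusted p under 0.05 in edgeR, in limma or, for the 4 with one, in DESeq2, and 0 an unadjusted p under 0.05 in edgeR or DESeq2, and their log2 fold changes ran from -0.06 to 0.56 with a median of 0.19. The promoter call held in DESeq2 and in limma, and was lost when either KLG4m/m library was left out, where the adjusted p reached 0.337 while the log2 fold change stayed between -2.10 and -1.49.

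**Figure D3:**
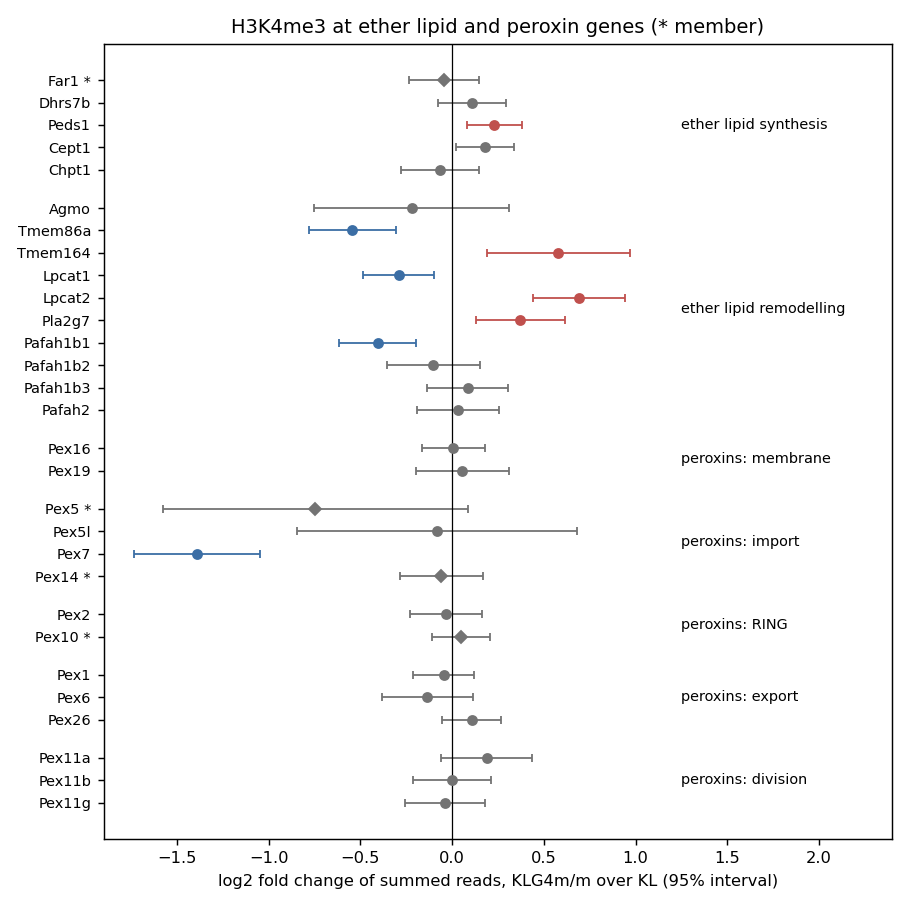
Log2 fold change of summed H3K4me3 reads, KLG4m/m over KL, with its 95% interval, for each gene of the ether lipid and peroxin lists that has a peak (diamonds and asterisks mark members; red higher and blue lower past an adjusted p of 0.05, grey not past it). Pex7 at -1.39 is the one coloured peroxin, and the coloured genes of ether lipid metabolism lie on both sides of 0, from -0.54 to 0.69.

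In the lists of ether lipid genes, summed H3K4me3 reads passed the threshold at 7 genes, in both directions, and none of these is a member. Of the 21 genes of synthesis and remodelling, which include the members Agps, Far1 and Gnpat, 15 have a peak. Of these, 4 were higher and 3 lower, and the median log2 fold change was 0.03. That is 46.7% of those with a peak, in lists chosen with earlier results of these data known, where 15% of all genes passed the threshold. DESeq2 called 1 of the 7, Lpcat2, and limma called 7 of the list. The members Agps and Gnpat, and Far2, Selenoi and Tmem86b, had no peak under their own name, and Tmem189 is an older symbol of Peds1.

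In synthesis, Peds1 rose. It encodes plasmanylethanolamine desaturase, which introduces the vinyl ether bond that makes a plasmalogen, and its 3 peaks summed to 455 and 448 reads in KL and 567 and 453 in KLG4m/m. The log2 fold change was 0.23 (SE 0.076; edgeR adjusted p = 0.0264), and KLG4m/m replicate 3 was the higher of its pair, at 152 ± 17.7 CPM in the group against 130 ± 1.57 CPM in KL. Without that library the log2 fold change was 0.10 (adjusted p = 0.482). None of the 3 peaks passed on its own, with adjusted p-values of 0.055 to 0.402. Cept1, the choline/ethanolamine phosphotransferase that adds the head group, had a log2 fold change of 0.18 (SE 0.0801; edgeR adjusted p = 0.122).

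Among the genes of remodelling, Lpcat2 rose most. LPCAT2 is an acyltransferase that also makes platelet-activating factor, an ether phospholipid, and its summed reads were 116 and 140 in KL and 199 in each KLG4m/m library. The log2 fold change was 0.69 (SE 0.126; edgeR adjusted p = 1.62e-05), and the 3 peaks listed under it were higher by 0.62 to 1.47. The peak at 1.47 is annotated to an intron of Mmp2, 7.41 kb upstream of the Lpcat2 start site. It held 8 reads in each KL library and 18 and 25 in KLG4m/m. Tmem164, an acyltransferase that forms polyunsaturated ether phospholipids, rose from 57 and 43 reads to 75 and 69 (0.58, SE 0.196; adjusted p = 0.0308). Pla2g7, a secreted hydrolase of platelet-activating factor and of oxidized phospholipids, rose from 159 and 146 to 183 and 197 (0.37, SE 0.122; adjusted p = 0.0249). Over all peaks, the single Tmem164 peak had an adjusted p of 0.058 and the 2 Pla2g7 peaks 0.27 and 0.0566, so neither gene passed by a peak alone.

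The genes that fell were Tmem86a, Pafah1b1 and Lpcat1. TMEM86A is a lysoplasmalogenase, which cleaves the vinyl ether bond, and its single promoter peak went from 217 and 216 reads to 158 and 128 (log2 fold change -0.54, SE 0.12; edgeR adjusted p = 0.000438). Pafah1b1, the LIS1 subunit that partners the intracellular acetylhydrolase of platelet-activating factor and regulates dynein, went from 246 and 285 to 204 and 182 (-0.41, SE 0.106; adjusted p = 0.00359). Lpcat1, an acyltransferase that serves surfactant lipid synthesis in alveolar type 2 cells, went from 332 and 334 to 312 and 212 (-0.29, SE 0.097; adjusted p = 0.0269). The decrease of Lpcat1 lay mostly in KLG4m/m replicate 4: without it the log2 fold change was -0.08, and without KLG4m/m replicate 3 it was -0.55. None of its 5 peaks passed on its own, the promoter peak having an adjusted p of 0.0966. Agmo, the monooxygenase that cleaves alkyl ethers, had -0.22 (SE 0.269; adjusted p = 0.634).

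Of 28 peroxisomal enzymes and membrane transporters, 26 have a peak, 1 rose and 1 fell, with a median log2 fold change of 0.05. That is 7.69% of those with a peak, below the 15% of all genes that passed the threshold. Abcd3, the transporter PMP70 of the peroxisome membrane, fell from 130 and 126 reads to 78 and 84 (-0.60, SE 0.155; edgeR adjusted p = 0.00282). Phyh, the hydroxylase of phytanoyl-CoA, had a log2 fold change of 0.26 and did not pass (edgeR adjusted p = 0.0603). DESeq2 called 0 genes of this list (adjusted p = 0.176 for Abcd3). Prdx5 and Pxmp2 had no peak under their own name.

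**Figure D4:**
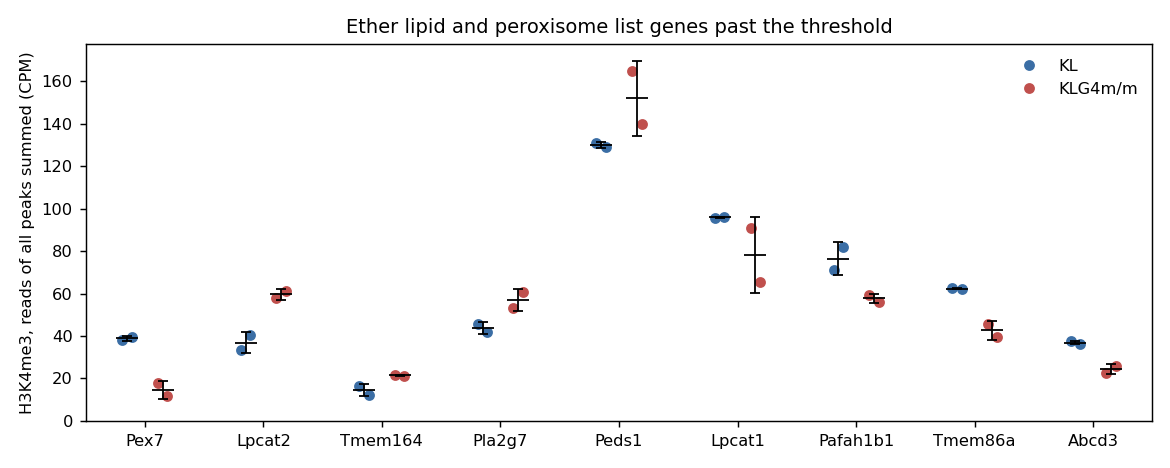
H3K4me3 in CPM, summed over the peaks of each gene, for 9 list genes past an adjusted p of 0.05, by library (points; KL blue, KLG4m/m red) with the mean and SD of each group's 2 libraries. Pex7 falls from 38.9 to 14.7 CPM, while the red points of Peds1 and Lpcat1 lie far apart.

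Markers of cell types differed between the groups beside these lists. For the counts that follow, 5.38% of all genes were higher and 9.63% lower in KLG4m/m. Reads at 6 epithelial markers summed to 315 and 320 CPM in KL and 272 and 275 in KLG4m/m, with 2 of 6 lower: Cdh1 and Epcam, the gene of the sort, which went from 182 and 200 reads to 115 and 94 (log2 fold change -0.82; edgeR adjusted p = 1.56e-06). Alveolar type 2 markers summed to 212 and 223 CPM against 164 and 167, with 3 of the 5 that have a peak lower and Sftpc without one. Lymphocyte markers summed to 273 and 265 CPM against 340 and 322, with 3 of 9 higher, Ms4a1 and Ptprcap among them, and Cd79a without a peak. Macrophage markers, of which Marco had no peak, were at 202 to 214 CPM with 1 higher and 1 lower of 7; endothelial markers were at 214 to 243 CPM with 1 higher and 1 lower of 6; and fibroblast markers were at 64.6 to 72.7 CPM with 1 higher of the 3 that have a peak, Col1a2, Dcn and Lum having none. The CD45 gene Ptprc (189, 207, 241 and 204 reads) and the CD31 gene Pecam1 (216, 249, 244 and 265 reads) had peaks in all libraries although the sort removed cells with these proteins, and neither passed the threshold (edgeR adjusted p = 0.163 and 0.222). With gene sums centred on their median, both passed as higher in KLG4m/m, Ptprc at 0.31 (adjusted p = 0.0294) and Pecam1 at 0.28 (adjusted p = 0.0407). That scaling moved the median log2 fold change of all genes from 0.0023 to 0.0942. Under no other alternative did either gene pass, DESeq2 included (adjusted p = 0.618 for Ptprc and 0.669 for Pecam1). The part of these markers in the results at Pex7 and at the ether lipid genes was not tested.

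The libraries held 3244495 to 3463731 reads in peaks. Of all peaks, 1099 were higher and 1960 lower in KLG4m/m, and of all genes 1122 and 2010; with gene sums centred on their median these were 2877 and 1421, and with DESeq2 119 and 336. The promoter peak of Gpx4 held 242 and 236 reads in KL and 304 and 301 in KLG4m/m (summed log2 fold change 0.39; edgeR adjusted p = 0.00178); it lies outside the deleted exons, so it checks nothing about the deletion.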

How the data were processed

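Per the labels and methods, the authors trimmed reads (Trim Galore 0.6.10), mapped them (BWA 0.7.15), removed duplicates (Picard 2.17.3), called peaks (MACS2 2.2.7.1) and used HOMER 4.11.1; whether peaks were called on pooled libraries was not stated. The authors deposited unnormalized counts of reads for each peak and library, which are used here, with the distance to a start site. Their CPM and comparison columns (fold changes and p-values) were not used.

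Counts were tested with edgeR 4.0.16 (TMM, quasi-likelihood, two-sided, no covariate; R 4.3.3) over all 35486 peaks or 20871 genes, with an adjusted p under 0.05 as the threshold. Alternatives were limma 3.58.1 on log2(CPM + 1), DESeq2 1.42.0, 4 other scalings, a filter at a mean of 10 CPM, 1 peak a gene, and each library left out. On data simulated with the same spread for every peak, 91% of 200 peaks changed 2-fold were recovered. These 200 all had a mean of at least 10 CPM, and changes at weaker peaks or under 2-fold were not simulated. Libraries of a group differed by more than sampling noise (chi-square per degree of freedom 1.13 in KL and 1.23 in KLG4m/m), and were kept as separate samples. Intervals cover these samples only.

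The members and lists were chosen with earlier results of these data known. Named were all members; in the lists, genes past the threshold and the 2 largest differences not past it; genes with a peak within 5000 bases of a member peak; the 3 genes most like the member with the largest difference; and Gpx4, Epcam, Ptprc and Pecam1. Genes with a start site within 1000 bases of a member's, peaks inside Pex14 and the other markers were named after values were seen. Some results under this rule are not reported here.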

Additional observations from a re-analysis of the deposited data

How the results depend on the processing

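None of the 5 member peaks and none of the 4 member genes passed the threshold under any alternative that gave them an adjusted p. Among the 4 shared promoters, that of Gnpat passed in 1 of 11 settings (adjusted p = 0.0411, without KL replicate 2, where the lone KL library is assumed to vary like the KLG4m/m pair). No paired analysis was possible because the groups share no replicate number.

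Directions near 0 turned. With median centring of gene sums, which moves the median of all genes to 0.0942, Far1 was at 0.0461 and Pex14 at 0.0319; Pecam1 was at -0.0885 by its nearest peak. Leaving out 1 library in turn gave -0.14 to 0.24 for the Far1 upstream peak, -0.1692 to 0.0566 for the Far1 promoter, -0.0452 to 0.1488 for Pex10, -0.1529 to 0.0272 for Pex14 and -0.88 to 0.18 for the peak in intron 1 of Pex14; summed reads gave -0.1489 to 0.0466 for Far1, -0.0403 to 0.1523 for Pex10 and -0.1562 to 0.0265 for Pex14.

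Counts moved more. DESeq2 called 33 peaks higher and 244 lower, 119 genes higher and 336 lower, 1 ether lipid gene (Lpcat2), 1 peroxin (Pex7) and 0 enzymes. Median centring called 2877 genes higher and 1421 lower (66.9% of calls higher, against 35.8%) and 5 enzymes. With the nearest or the strongest peak of a gene, 707 and 724 genes were higher, and 4 ether lipid genes passed in each; Peds1, Pla2g7 and Lpcat1 were lost in both, and Lpcat1 also with median centring (-0.20, adjusted p = 0.122). Without 1 library, calls ranged from 0 to 702 peaks higher, 0 to 1459 peaks lower, 0 to 649 genes higher, 0 to 1305 genes lower, 0 to 4 ether lipid genes, 0 to 1 peroxins and 0 to 2 enzymes. Every 0 came without KLG4m/m replicate 3 or 4, where the degrees of freedom of a peak's test fell from 26.5 to 3.63 and 5486 and 5178 peaks had an unadjusted p under 0.05, against 8738 with all libraries. Without either KL library the spread came from the KLG4m/m pair alone and the degrees of freedom rose to 35500, so calls kept there (2161 and 1482 peaks) are not firmer. Lpcat1, Peds1 and Pla2g7 were also lost without either KL library, and Pafah1b1 and Tmem164 without KL replicate 2 (adjusted p = 0.0573 to 0.336).

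Depth limits the upstream peaks of Far1 and Pex5, with 10 to 19 reads a library. Both fell below the filter at a mean of 10 CPM and had no value there. Of 388 values for 33 single peaks and genes, 319 kept their direction and side of the threshold; 5 further values, at weak peaks of Far1, Pex5 and Pex14, had no adjusted p in DESeq2 and are left out.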
